A study of Saccharomyces cerevisiae with 6 samples.

Results

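The 10 yeast genes ILV1, ILV2, ILV3, ILV5, ILV6, LEU1, LEU2, LEU4, BAT1 and BAT2, which encode the enzymes that make isoleucine, valine and leucine, were examined in cells treated with formaldehyde. They were chosen by name, as the probes whose gene symbol in GEO's platform annotation is one of the 10. Each had 1 probe, and together they make up 10 of the 5379 named genes on the array. The treated culture was Saccharomyces cerevisiae strain S288C, the laboratory strain behind the reference genome, grown in rich YPD medium at 25 °C and exposed in exponential growth to 1.8 mM formaldehyde for 2 h. The control culture was the same strain in the same medium, kept for 2 h with nothing added. Poly(A) RNA from treated cells was labelled with Cy5 and RNA from control cells with Cy3, and both were hybridised to the same array. There were 3 arrays, from independent biological samples per the labels, and each was read once at high and once at low scanner power, which gave 6 scans.

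Every value below is a log2 ratio of treated over control, so a negative value means less transcript in treated cells. This direction is likely rather than settled: the labels put treated RNA in channel 1 on every array but do not state which way the ratio runs. Turned round, each "higher" would read "lower", and the shares of the control given below would be inverted: ILV1, for example, would be 7.70-fold and LEU1 2.17-fold higher. No array had its dyes swapped, so a dye effect of a single gene and the treatment cannot be told apart. Each culture was measured as a whole, so fewer cells carrying a transcript and less of it per cell cannot be told apart either.

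Isoleucine and valine are built by the same mitochondrial enzymes, which act in parallel on a 2-ketobutyrate chain for isoleucine and a pyruvate chain for valine. Leucine branches off from the keto acid that precedes valine, through isopropylmalate, and the last step of all 3 amino acids is a transamination. In yeast the pathway is known as a target of Gcn4, the activator that answers amino acid shortage, and of Leu3, an activator that responds to isopropylmalate. Dihydroxyacid dehydratase (Ilv3) and isopropylmalate isomerase (Leu1) carry iron-sulfur clusters.

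Lower values prevailed among the genes that gave a reading, and ILV1 and ILV3 read lowest. ILV1, ILV3, ILV2 and BAT1 had means between -2.94 and -1.60 over the arrays that measured them, but none of them had a value on all 3 arrays. Of the 5 genes measured on all 3 arrays, LEU1, BAT2 and LEU2 were called lower, ILV6 and LEU4 did not pass the test, and none was called higher. Among all 2133 genes with a value on 3 arrays, 25.3% were called lower and 37.2% higher at adjusted p under 0.05 (limma, Benjamini-Hochberg over the 2133 genes). At an unadjusted p under 0.05 the same test gave 3 of the 5 genes lower and 0 higher. The median of the 5 tested genes was -0.50, against 0.18 for all tested genes. Of the 9 pathway genes with any value, 7 were below 0 on every array that measured them, a pattern that 42.1% of the 4679 genes with a value showed.

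Coverage was uneven across the pathway. ILV6, LEU4, LEU1, LEU2 and BAT2 had a value on 3 arrays, ILV1 on 2, and ILV2, ILV3 and BAT1 on 1. ILV5, which encodes the reductoisomerase between acetolactate synthase and the dehydratase, had none. The 4 genes left untested with a value all lay below the lowest tested gene, LEU1, so the tested genes do not stand for the pathway as a whole. The arrays themselves differed in the same way, with 2498, 3329 and 4292 genes measured on arrays 1, 2 and 3. Over all genes, the median was 0.18 for those measured on 3 arrays, -0.089 for those on 2 and -0.20 for those on 1. Pearson's r between arrays, across the 2133 genes, lay between 0.886 and 0.948; genes are not independent replicates.

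**Figure D1:**
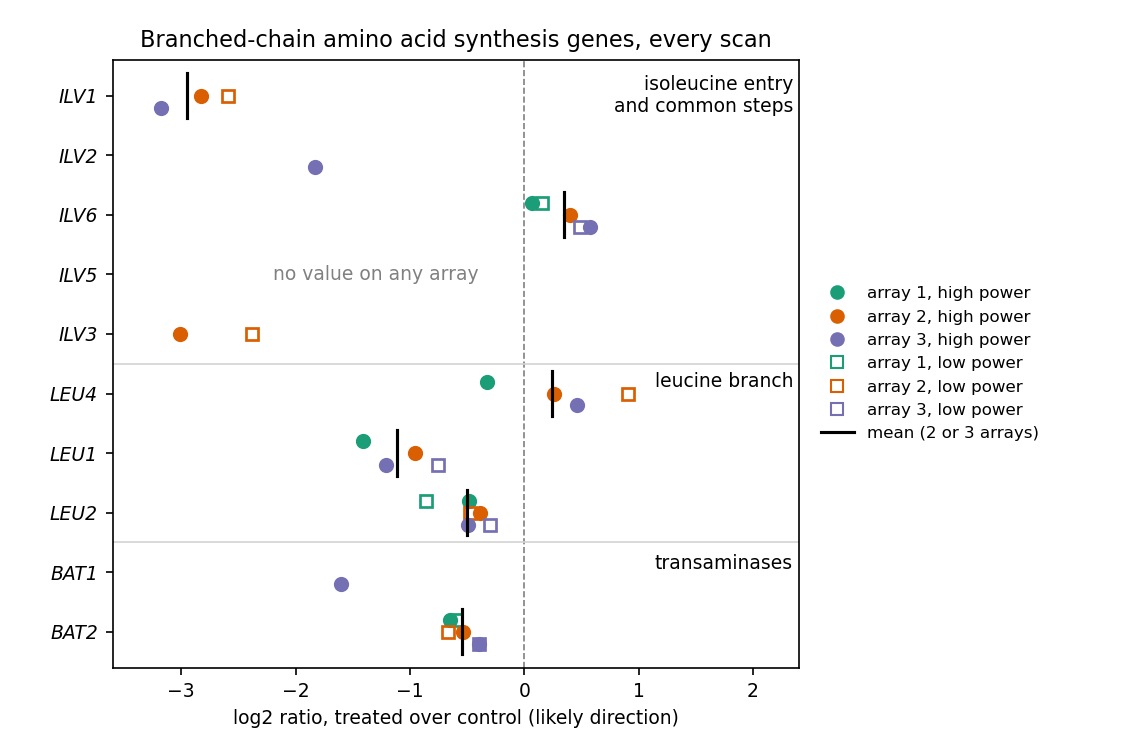
Log2 ratio of treated over control (likely direction) for each of the 10 genes in every scan, with filled circles for high power, open squares for low power, 1 colour per array and a black bar at the mean of genes with 2 or 3 arrays. ILV1, ILV2, ILV3 and BAT1 lie at -1.60 or below in every scan that read them, LEU1, LEU2 and BAT2 lie below 0 in every scan, and ILV6 lies above 0 in every scan.

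ILV1 (YER086W) encodes threonine deaminase, which turns threonine into 2-ketobutyrate and commits it to isoleucine; the enzyme is inhibited by isoleucine. ILV1 read -2.71 on array 2 and -3.18 on array 3, with no value on array 1. Both readings were far down in the distribution: 4.0% of genes on array 2 and 3.66% of genes on array 3 had a lower value. The mean of -2.94 corresponds to a level in treated cells at 13.0% of the control. With genes measured on at least 2 arrays admitted, ILV1 was lower at adjusted p = 5.28e-06 (limma, 95% interval -3.55 to -2.34), a fit in which 24.7% of 3307 genes were called lower. That interval rests on 1 residual degree of freedom for the gene and on the variance pooled over genes.

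Acetolactate synthase, which joins the next carbon unit onto both chains, has a catalytic subunit, Ilv2, and a regulatory subunit, Ilv6, that confers inhibition by valine. ILV2 (YMR108W) had a value only on array 3, where it read -1.83, or 28.2% of the control; 9.51% of genes on that array were lower. ILV6 (YCL009C) read 0.11, 0.40 and 0.53 on arrays 1, 2 and 3. All 3 readings were above 0, but the mean of 0.35 ± 0.22 (SD, n = 3) did not pass the test (limma adjusted p = 0.12, 95% interval -0.06 to 0.75). On array 3, the only one with both subunits, ILV6 stood 2.36 above ILV2 on the log2 scale. That is a 5.13-fold difference in response between the genes of the same enzyme, seen on 1 array and without a test.

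ILV3 (YJR016C), the gene of dihydroxyacid dehydratase, had a value only on array 2. It read -3.01 in the high power scan and -2.38 in the low power scan, with an average of -2.70, or 15.4% of the control. On that array 4.15% of genes were lower. ILV1 averaged -2.71 on the same array, from -2.83 at high and -2.59 at low power. The averages for the genes of the first isoleucine step and of the dehydratase lay within 0.011 of each other there. Their order differed between the scans, with ILV3 below ILV1 at high power and above it at low power.

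In the leucine branch the 3 genes did not move alike. LEU4 (YNL104C) encodes the main 2-isopropylmalate synthase, the step inhibited by leucine. It read -0.32, 0.58 and 0.46 on arrays 1, 2 and 3, so the arrays differed in sign. Its mean of 0.24 ± 0.49 (SD, n = 3) did not pass (limma adjusted p = 0.37, 95% interval -0.28 to 0.76). The 2 scans of array 2 read 0.26 at high and 0.91 at low power, the widest gap between scans of any of the 10 genes. LEU9, which encodes a second 2-isopropylmalate synthase, had a value on array 2 alone, at -1.46, where LEU4 was 2.05 higher on the log2 scale. The 2 genes are paralogues, and cDNA of one can hybridise to the probe of the other.

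LEU1 (YGL009C), the gene of isopropylmalate isomerase in the cytosol, was the lowest of the 5 tested genes. It read -1.41, -0.96 and -0.98 on arrays 1, 2 and 3. The 2 scans of array 3 read -1.21 at high and -0.75 at low power. On all 3 arrays the value was below 0, and LEU1 fell by 1.12 ± 0.26 (SD, n = 3; limma adjusted p = 0.00142), to 46.1% of the control. Of all tested genes, 13.9% had a lower mean. The call remained when any 1 array was left out.

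LEU2 (YCL018W) encodes 3-isopropylmalate dehydrogenase, the next enzyme. It read -0.67, -0.43 and -0.40 on arrays 1, 2 and 3. LEU2 fell by 0.50 ± 0.15 (SD, n = 3; limma adjusted p = 0.0333), to 70.7% of the control, with 25.8% of tested genes lower. This call needed all 3 arrays. It did not pass without array 1 (-0.41, adjusted p = 0.20), without array 2 (-0.53, adjusted p = 0.15) or without array 3 (-0.55, adjusted p = 0.078), nor with high power scans alone (-0.45, adjusted p = 0.0505).

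Bat1 and Bat2 are the branched-chain transaminases, Bat1 in mitochondria and Bat2 in the cytosol; Bat1 is known as the form of growing cells and Bat2 as the form that rises as growth slows. BAT1 (YHR208W) had a value only on array 3, at -1.60, or 33.0% of the control, with 11.1% of genes on that array lower. BAT2 (YJR148W) read -0.63, -0.60 and -0.40 on arrays 1, 2 and 3, the smallest spread of the tested genes. BAT2 fell by 0.54 ± 0.13 (SD, n = 3; limma adjusted p = 0.0234), to 68.7% of the control. The fall in BAT2 did not pass without array 1 (-0.50, adjusted p = 0.12), without array 2 (-0.51, adjusted p = 0.17) or without array 3 (-0.61, adjusted p = 0.053).

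On array 3 BAT2 stood 1.20 above BAT1 on the log2 scale, a 2.30-fold difference in response. BAT1 had no value on the other arrays, so the difference could not be tested over arrays. The genes are similar in sequence, and part of each signal may come from the other.

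The tested genes ranked ILV6, LEU4, LEU2, BAT2 and LEU1 from the highest mean to the lowest. ILV6 and LEU4 differed by 0.11 ± 0.31, and LEU2 and BAT2 by 0.042 ± 0.12, and in both cases the arrays disagreed on the order. LEU4 lay above LEU2 by 0.74 ± 0.35, and BAT2 above LEU1 by 0.57 ± 0.22, on all 3 arrays. ILV6 lay above LEU1 on all 3 arrays, by 1.46 ± 0.09 (SD of the differences, n = 3). Of the 10 pairs among these 5 genes, 8 kept 1 order on all 3 arrays. An exact two-sided sign-flip permutation test over 3 arrays cannot give less than p = 0.25, which those 8 pairs reached, or 0.31 after Benjamini-Hochberg adjustment over the 10 pairs.

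Repeat scans of an array were close for some genes and further apart for others. High and low power values were both present in 12 cases, over 7 of the genes. They differed by 0.16 at the median, from 0.0043 for BAT2 on array 3 to 0.65 for LEU4 on array 2. The gap was 0.63 for ILV3 on array 2 and 0.46 for LEU1 on array 3. Over all genes and arrays the median gap was 0.21. ILV2 and BAT1 were read at high power only.

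The median of the genes measured was -0.63 on array 1 (5 genes), -0.60 on array 2 (7 genes) and -0.69 on array 3 (8 genes). These medians cover different genes. Over the same 5 tested genes the medians were -0.63, -0.43 and -0.40. The medians of all genes on those arrays were 0.014, 0.050 and 0.13. At least 2-fold lower readings were found for 1 of 5 genes on array 1 (LEU1), 2 of 7 on array 2 (ILV1 and ILV3) and 3 of 8 on array 3 (ILV1, ILV2 and BAT1). Of all genes on those arrays, 21.0%, 15.7% and 18.9% read that low. The share on array 1 was near that of all genes, and those on arrays 2 and 3 were above it, as counts of 2 and 3 genes.

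**Figure D2:**
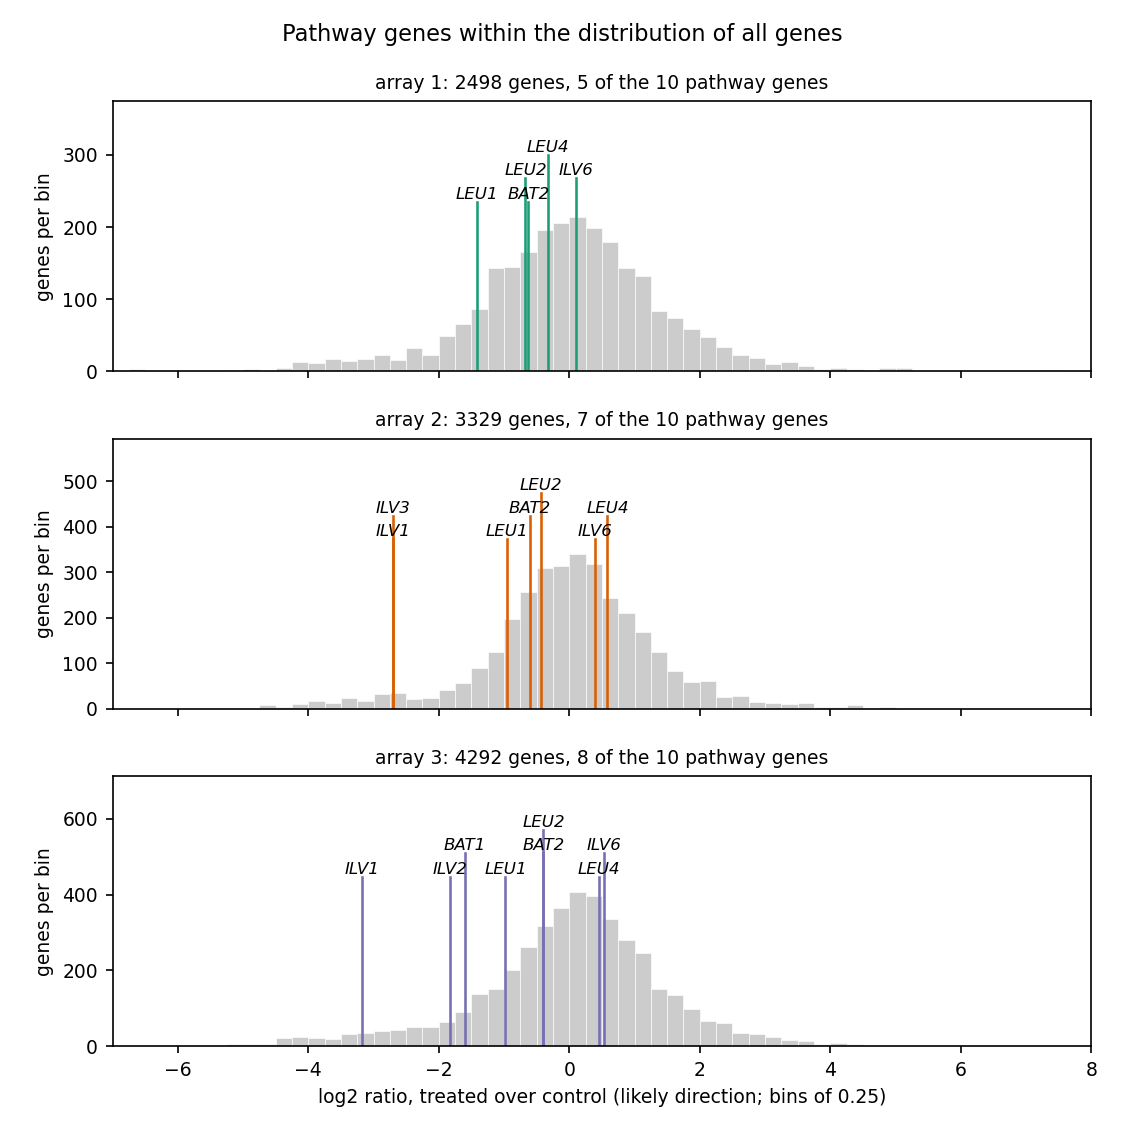
Number of genes per bin of log2 ratio (treated over control, likely direction; bins of 0.25) on each array, with a coloured line at each pathway gene measured there. ILV1 and ILV3 stand in the low tail of array 2 at -2.71 and -2.70, ILV1 at -3.18, ILV2 at -1.83 and BAT1 at -1.60 stand low on array 3, and ILV6 and LEU4 lie above 0 on both.

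The activators of the pathway were read unevenly. GCN4, whose protein level is known to be set mainly by translation of its mRNA, read -3.77, -4.03 and -3.45 on arrays 1, 2 and 3. It fell by 3.75 ± 0.29 (SD, n = 3; limma adjusted p = 1.02e-05), a larger change than that of any of the 5 tested pathway genes. LEU3 was on the array but had no value in any scan. OAC1, a mitochondrial carrier known to export isopropylmalate for the leucine branch, read -0.78 on array 1 and -1.56 on array 3, and was lower when 2 arrays sufficed (-1.17, limma adjusted p = 0.00572). LEU5, a mitochondrial carrier needed for coenzyme A, read -0.03 and 0.30 on arrays 2 and 3. The 3 genes whose readings over 3 arrays lay nearest to those of LEU1, by Euclidean distance, were TNA1 (0.12), ARH1 (0.14) and GCN20 (0.16), with means of -1.15, -1.11 and -1.08; 65 genes lay within 0.5.

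Genes that make threonine or compete with Ilv1 for it went both ways. Of 6 with a named probe, including CHA1 and the threonine aldolase GLY1, 5 were tested, of which 2 rose and 2 fell (median -0.17). The shares over all 2133 tested genes were 37.2% called higher and 25.3% called lower. The aspartate kinase HOM3 rose by 1.12 ± 0.34 and the homoserine dehydrogenase HOM6 by 2.16 ± 0.32, while HOM2, the enzyme between them, fell by 2.02 ± 0.02 and the homoserine kinase THR1 fell by 1.19 ± 0.42 (SD, n = 3; limma adjusted p at most 0.00211). CHA1, named after its values were seen, encodes a threonine deaminase that breaks threonine and serine down. It read 2.36 on array 1 and 3.10 on array 3 (2.73, limma adjusted p = 1.42e-05 when 2 arrays sufficed). On array 3, where ILV1 read -3.18, these deaminase genes were 6.28 apart on the log2 scale, and no test of that difference could be run on 1 array.

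The genes for uptake and use of the finished amino acids were read from lists of permeases, tRNA synthetases and breakdown enzymes. All 6 permease genes that can carry branched-chain amino acids had means below 0, 3 of them on 1 or 2 arrays only. BAP2 was among the 6, although it read 0.012 on array 3. As readings on single arrays rather than means, 49.4%, 48.0% and 45.6% of all genes were below 0 on arrays 1, 2 and 3. The median of the means of all genes with a value was 0.0061. Of the 3 tested, AGP1 fell by 2.54 ± 0.09, BAP3 fell by 0.54 ± 0.09 and BAP2 was at -0.04 ± 0.08 (limma adjusted p = 2.06e-05, 0.0225 and 0.83). The BAP3 call did not pass without array 1 (-0.59, adjusted p = 0.062), array 2 (-0.52, adjusted p = 0.16) or array 3 (-0.51, adjusted p = 0.088). ILS1, the cytosolic isoleucyl-tRNA synthetase, fell by 2.23 ± 0.25 (SD, n = 3; limma adjusted p = 5.59e-05). Its counterparts for leucine (CDC60) and valine (VAS1) read -2.25 and -1.62 on array 3 alone, where NAM2, the mitochondrial leucyl-tRNA synthetase, read 0.15. In the list of genes that break the keto acids down to fusel alcohols, 6 of 7 tested genes fell and 1 rose. Of all tested genes, 25.3% were called lower and 37.2% higher. SFA1, which also oxidises formaldehyde bound to glutathione, was the 1 that rose, by 3.06 ± 0.14. PDC1 fell by 3.00 ± 0.05, ADH1 fell by 2.92 ± 0.19 and ADH2 fell by 2.90 ± 0.47 (SD, n = 3; limma adjusted p at most 4.27e-05 for SFA1, PDC1, ADH1 and ADH2). PDC5 fell by 2.44 ± 0.28 (SD, n = 3, limma adjusted p = 4.27e-05). Smaller falls were read for ARO10, by 0.64 ± 0.26, and THI3, by 0.62 ± 0.30 (limma adjusted p = 0.0174 and 0.0223). Whether the PDC5, ARO10 and THI3 calls hold without 1 array was not tested.

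The iron-sulfur enzymes of the pathway were set beside other enzymes of that kind. ILV3, at -2.70 on 1 array, and LEU1, at -1.12, were accompanied by aconitase, ACO1, which fell by 2.77 ± 0.20 (SD, n = 3; limma adjusted p = 1.86e-05), and by homoaconitase, LYS4, at -2.71 on array 3 alone. Of the genes in the same list for building such clusters, all 5 that were tested rose, where 37.2% of all tested genes were called higher, with IBA57 at 2.51 ± 0.38, ISA2 at 1.66 ± 0.34, NFS1 at 1.61 ± 0.37, ISU1 at 1.29 ± 0.15 and ISA1 at 0.66 ± 0.28 (SD, n = 3; limma adjusted p at most 0.0159). ISU1 and ISA1 were counted as list members and named after their values were seen. Of their products, Isa1, Isa2 and Iba57 are known to act in equipping aconitase and homoaconitase with their clusters. A link between these assembly genes and ILV3 or LEU1 was not tested.

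**Figure D3:**
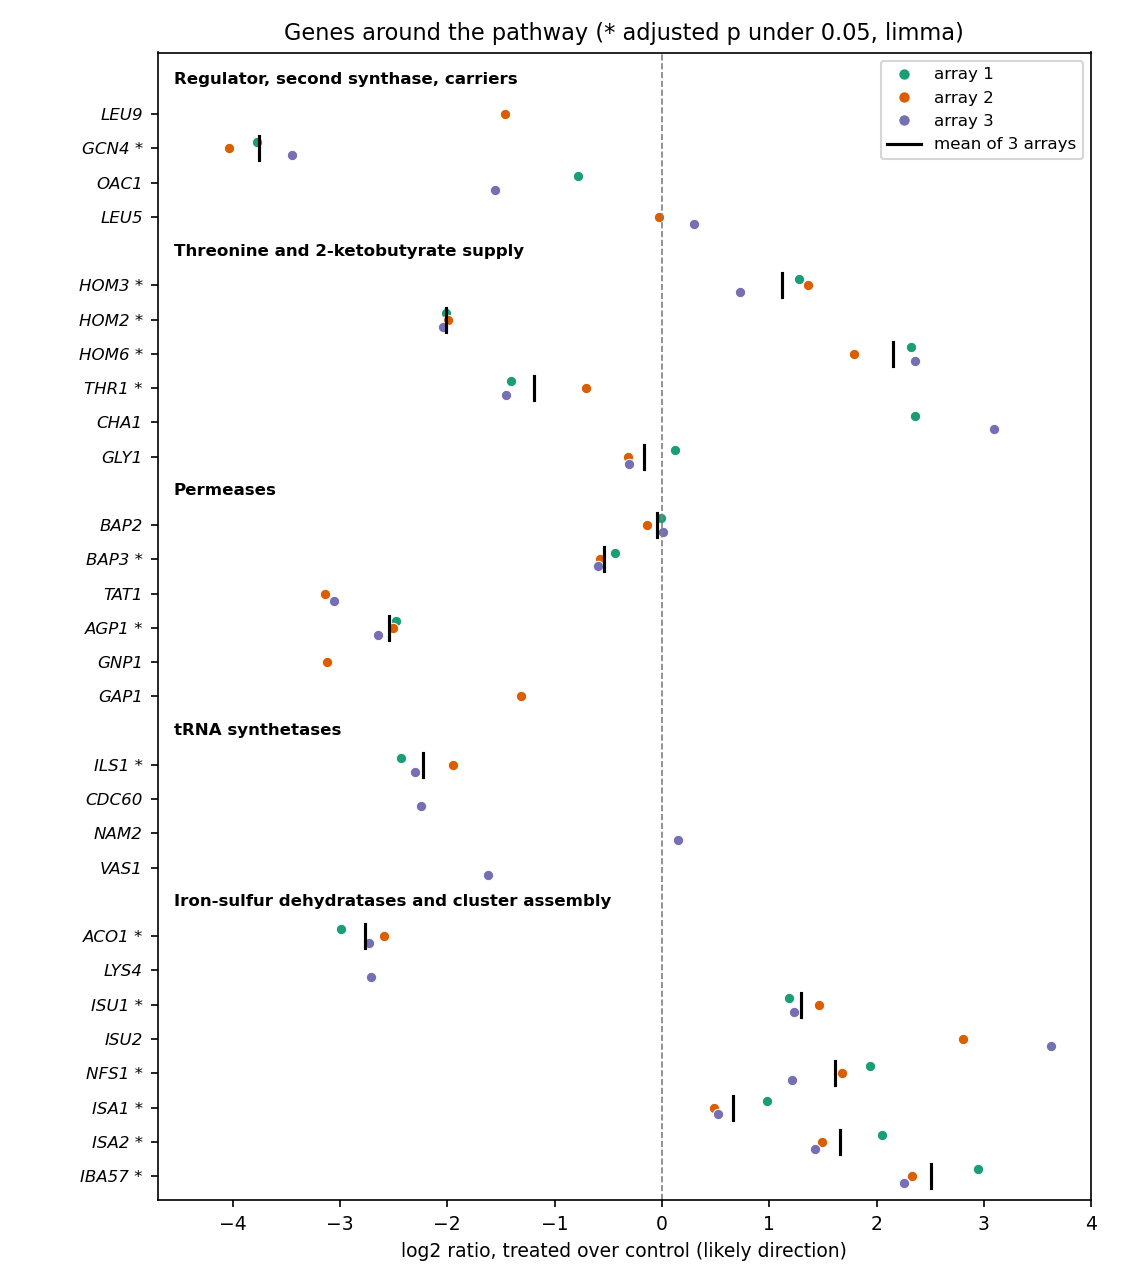
Log2 ratio of treated over control (likely direction) for genes around the pathway, with 1 point per array, a black bar at the mean of genes measured on all 3 arrays, and an asterisk for limma adjusted p under 0.05. GCN4 lies at -3.75, the permease AGP1 at -2.54, ACO1 at -2.77, and the 5 tested cluster assembly genes between 0.66 and 2.51.

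Other amino acid pathways gave mixed counts as well, beside 25.3% of all tested genes called lower and 37.2% called higher. In histidine synthesis 3 of 5 tested genes fell and 1 rose, with a median of -1.06 over the tested genes. In aromatic amino acid synthesis 2 of 9 fell and 2 rose (median -0.058), in lysine synthesis 1 of 3 fell and 1 rose (median -0.078), and in arginine synthesis 1 of 2 fell and 0 rose (median -0.37; limma, 0 higher also at an unadjusted p under 0.05). The lysine median is the value of ARO8, which is also counted in the aromatic list. Over the 9 lysine genes with a value the median was -1.54. Some of the calls in these lists depended on single arrays. The arginine call, ARG4, did not pass without array 1 or array 2 (-0.55 and -0.63, limma adjusted p = 0.080 and 0.084), and HIS6 of histidine synthesis did not pass without array 3 (-1.10, adjusted p = 0.071) and had a mean of -0.67 without array 1. PHA2, 1 of the 2 aromatic genes that rose, did not pass without array 1 (0.50, adjusted p = 0.12), array 2 (0.42, adjusted p = 0.27) or array 3 (0.40, adjusted p = 0.15). Branched-chain synthesis, with 3 of 5 lower and a median of -0.50, lay within the range of these lists, and no difference between them was tested. On array 3 alone, the branched-chain genes had a median of -0.69 over 8 genes, against -1.51 over 9 lysine genes, -1.32 over 6 histidine genes, -0.47 over 3 arginine genes and 0.20 over 13 aromatic genes.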

How the data were processed

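Two-colour arrays of treated (Cy5) against control (Cy3) RNA were used, 3 arrays with 2 scans each. Values are log2 ratios as deposited, 1 for each probe in each scan, after LOWESS by the authors over unflagged spots, per the labels' descriptions. Base 2 was read from the values, whose lowest, -6.64, is the log2 of 0.01. Means over probes lay between -0.0087 and 0.0058 and medians between -0.0067 and 0.19 per scan. No source used here gives the image software. Spot intensities were not used here, so signal over background is unknown and the number of arrays limits the precision.

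Of 6912 probes, 5446 had 1 gene symbol, 0 had several and 1466 had none. Probes of a gene were averaged, then the high and low power scans of an array, or the one present was taken. The mean of each gene present on all 3 arrays was compared with 0 by limma 3.58.1 (R 4.3.3; lmFit and eBayes, with 4.84 prior and 2 residual degrees of freedom). P-values were adjusted over these 2133 genes by Benjamini and Hochberg's method, with a threshold of 0.05. The test was run on simulated data first. Errors are SDs over arrays. The text names all 10 pathway genes, LEU9, LEU3, GCN4 and OAC1, up to 4 called genes of largest change from each adjacent list, and the 3 genes nearest to LEU1. Beyond that rule, ISU1, ISA1, LEU5, BAP2, CHA1, GLY1, CDC60, VAS1, NAM2, LYS4, PDC5, ARO10, THI3 and ARO8 were named after their values were seen. For histidine, lysine, arginine and aromatic synthesis, counts are given, with the genes whose call was lost without 1 array. The genes and lists were chosen with earlier results of these data known. Alternatives covered scan power, centring, scaling, filters, variance moderation, thresholds and left-out arrays. A planned search of promoters for motifs was not run, as no promoter sequence was used here.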

Additional observations from a re-analysis of the deposited data

How the results depend on the processing

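The calls that LEU2 and BAT2 were lower rest on all 3 arrays together, and that for LEU1 does not. Of the tested genes, 3 were lower in the main test, and 1 to 2 were lower when 1 array was left out (without array 1 these were LEU1 and ILV1); 0 were higher in any of these fits. At adjusted p under 0.01, 1 gene, LEU1, was lower, and 0 were when limma asked for more than a 2-fold change. LEU2 also missed the threshold with high power scans alone (adjusted p = 0.0505) and when 2 arrays sufficed or no filter was set (adjusted p = 0.062). The signs of ILV6, LEU4, LEU1, LEU2 and BAT2 were the same in every setting that gave them a value. The median of the measured genes moved to -0.63 when scans were centred without the ribosomal protein genes. It moved to -0.69 with arrays centred on the tested genes, a setting added after the data were seen, and to -1.12 over the 9 genes with any value. Those 2 centrings shifted the median of all tested genes by -0.11 and -0.19, and LEU1, LEU2 and BAT2 were called lower under both. With arrays centred on the tested genes, 654 genes were higher and 649 lower over the whole table, against 794 and 539. Limma called 410 of 2133 genes with a 2-fold minimum, against 1333 of 2133 (62.5%) without one. It called 403 of 560 (72.0%) with low power scans alone and 408 of 546 (74.7%) with a value in all 6 scans, settings that tested fewer genes. The difference of BAT2 over BAT1 was 1.07 with scaled scans. With low power scans alone or a value in all 6 scans, only LEU2 and BAT2 could be tested, and both were lower. The number of arrays limits all of this, and 5 of the 10 genes could not be tested.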
